A study of Mus musculus with 9 samples.

Results

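The transcripts of 10 genes of the piRNA and endo-siRNA pathways were followed in pools of mouse metaphase II (MII) oocytes, mature eggs held at the second meiotic division. The genes were taken by symbol, under a rule that uses no measured value: Dicer1, Ago1, Ago2, Ago3, Mael, Piwil2, Pld6, Tdrkh, Mov10l1 and Henmt1. All 10 were found among the 30153 genes of the deposited tables. The oocytes came from 4-week-old Sycp3CreERT2/+; Rosa26nT-nG/+ females of mixed genetic background, given 5 IU of PMSG and 48 hours later 5 IU of hCG and killed 13 hours after that. All groups thus carried CreERT2, a Cre that tamoxifen activates, under the name of the meiotic gene Sycp3, and a reporter that changes from nuclear tdTomato to nuclear GFP when Cre acts. Whether and when tamoxifen was given is not stated in the sources used here. Denuded eggs were sorted by hand under the microscope. GFP High pools held 15 to 16 oocytes, GFP Low pools 49 to 57 and RFP pools 87 to 100, with 3 libraries of each. RFP eggs share the genotype, so they are a control for recombination of the reporter only. The labels do not say whether the pools came from separate animals, so p-values measure the spread between these libraries, which may be technical.

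Mouse oocytes use short RNAs to hold retrotransposons and some messenger RNAs in check. In the endo-siRNA pathway, Dicer cuts long double-stranded RNA formed from inverted repeats or from gene and pseudogene pairs, and an Argonaute protein loaded with the product cuts the matching transcript. In the piRNA pathway, single-stranded precursors are processed at the mitochondrial surface, loaded onto PIWI proteins and methylated at their 3′ end. Male germ cells depend on the piRNA pathway, whereas female mice stay fertile without several of its proteins. Poly-A RNA-seq reads the messenger RNAs of this machinery, not the short RNAs themselves.

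Library totals lay between 19381677 and 27746256 counts. All 10 oocyte markers examined, among them Gdf9, Zp3 and Nlrp5, had over 3 counts in each library, with summed levels of 7503 to 8320 CPM (counts scaled to library size) in GFP High, 6746 to 7093 in GFP Low and 6863 to 7369 in RFP. GFP High libraries had 869 to 1081 eGFP counts, GFP Low libraries 282 to 662 and RFP 1, 2 and 3 had 0, 8 and 16. tdTomato ran the other way, with 0 to 2, 16 to 35 and 46 to 94 counts. Of 12 cumulus and granulosa cell markers, 3 to 9 had over 3 counts in GFP High, 6 to 11 in GFP Low and 8 to 11 in RFP, and their summed level was 103.1 to 187.3, 128.7 to 135.3 and 118.9 to 175.6 CPM. Most of that sum was Nr5a2 (101.1 to 158.0 CPM). It had 2020 to 4328 counts, also where other markers of the list had 0, so the sum is not read as cumulus RNA. Tnfaip6 and Ptx3, made by the cumulus during expansion, and Inha, an inhibin subunit of granulosa cells, ran from 0 counts to 249, 221 and 144, with the highest counts in RFP 2. Leukocyte markers summed to at most 1.68 CPM and the red blood cell marker Alas2 to at most 0.816 CPM.

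The 10 genes formed a wide ladder of levels. They are compared first in the authors' FPKM, which divides by gene length, and then between libraries in CPM scaled by TMM over the 9 libraries. Mael stood at 35.9 ± 4.97 FPKM and Dicer1 at 32.6 ± 2.20 (mean ± SD, n = 9 libraries). Tdrkh followed at 21.2 ± 1.52 FPKM and Henmt1 at 14.1 ± 3.69. Ago2 reached 7.30 ± 0.602 FPKM and Ago3 6.04 ± 0.533. Below these came Pld6 at 2.94 ± 1.22 FPKM, Mov10l1 at 1.73 ± 1.09, Ago1 at 0.414 ± 0.237 and Piwil2 at 0.370 ± 0.154. Against 15857 genes kept by the filter on low counts in the 9 libraries, Mael lay above 89.9% of genes and Piwil2 above 18.3%.

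Several neighbours on this ladder could not be ranked. Mael exceeded Dicer1 in 5 of 9 libraries and Ago1 exceeded Piwil2 in 5 of 9, with overlapping ranges. Dicer1 exceeded Tdrkh, and Henmt1 exceeded Ago2, in 9 of 9 libraries with no overlap of their ranges. Ago2 exceeded Ago3 in 8 of 9 libraries, though the ranges overlapped. The deposited length of Dicer1, 16750 bases, is 1.70 times its longest protein-coding transcript in GENCODE M21, so the top of the order rests on the length used. Per kb of that transcript Dicer1 stood at 56.0 CPM and Mael at 37.1, and the other 8 genes kept their ranks.

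**Figure D1:**
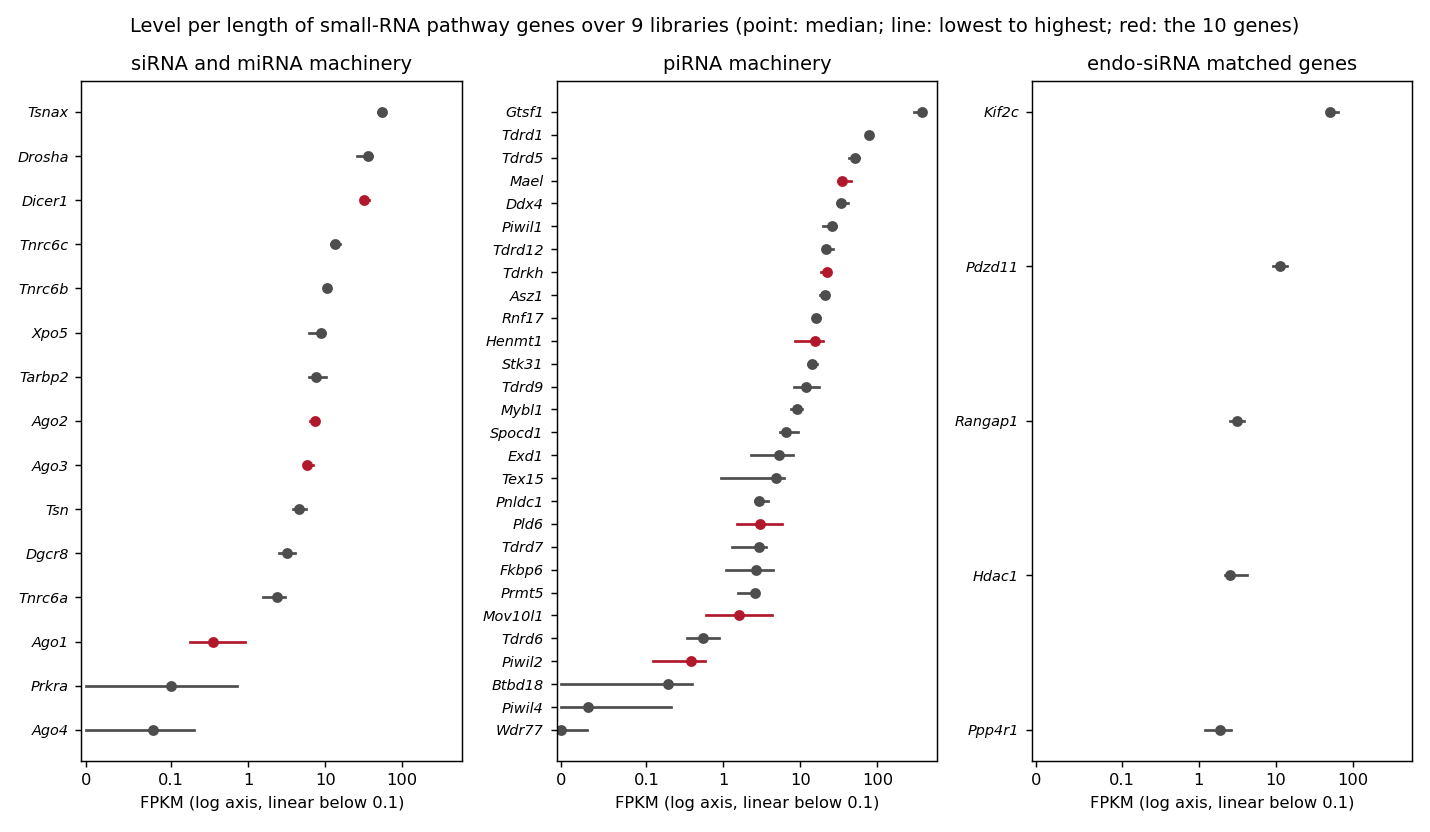
Level per length (FPKM, logarithmic above 0.1) of small-RNA pathway genes over the 9 libraries, in 3 lists, with the median as a point and the lowest to highest library as a line. The 10 genes, in red, spread from Mael and Dicer1 above 30 FPKM to Ago1 and Piwil2 below 1 FPKM.

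Dicer1 encodes the RNase III enzyme that makes endo-siRNAs and cuts microRNA precursors. It lies on chromosome 12 (ENSMUSG00000041415, 104687742 to 104751952, minus strand, GRCm38), and its whole annotated exon set was counted as a single gene. An oocyte form of Dicer that starts inside the gene is known in mice, and gene-level counts do not tell it from the full-length form. Dicer1 had 551, 504 and 517 CPM in GFP High 1, 2 and 3, and 586, 522 and 558 CPM in GFP Low 1, 2 and 3. The RFP libraries gave 546, 541 and 637 CPM. The groups overlapped, and the highest library was 1.26 times the lowest. Drosha, the nuclear RNase III of the microRNA pathway, was at a like FPKM, with a Dicer1 to Drosha ratio of 0.802 to 1.17 across libraries. This ratio too rests on the deposited length of Dicer1.

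The Argonautes bind the short RNA, and Ago2 is the family member known for cutting targets in mouse oocytes. Ago2 (ENSMUSG00000036698, chromosome 15, 73095844 to 73184935, minus strand) had 110, 111 and 113 CPM in GFP High 1, 2 and 3. The GFP Low libraries gave 89.4, 104 and 103 CPM and the RFP libraries 108, 98.1 and 94.6, in the order of replicates. The 3 GFP High libraries lay above all others, by a small margin. Chrac1 overlaps the end of Ago2 on the opposite strand and had 0 to 88 counts, against 1733 to 3008 for Ago2.

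Ago3 (ENSMUSG00000028842, chromosome 4, 126331704 to 126429556, minus strand) stood at 97.8, 109 and 88.5 CPM in the GFP High libraries, at 116, 94.9 and 96.1 in those of GFP Low and at 104, 94.3 and 109 in those of RFP. Its groups overlapped. Ago1 (ENSMUSG00000041530, chromosome 4, 126435012 to 126468583, minus strand) was far lower. Its GFP High libraries gave 1.57, 4.51 and 7.42 CPM, its GFP Low libraries 4.80, 2.10 and 1.44 and its RFP libraries 3.55, 2.19 and 2.93. GFP High held both a library near the bottom and the highest of all 9. Per length, Ago2 took 45.2% to 56.2% and Ago3 37.2% to 49.9% of the summed FPKM of the 4 Argonautes, while Ago1 took 1.33% to 6.36% and Ago4 at most 1.37%.

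Ago3, Ago1 and Ago4 lie in a row on chromosome 4 on the same strand, with 5455 bases between Ago3 and Ago1 and 20957 between Ago1 and Ago4. Yet Ago3 exceeded Ago1 in FPKM by 5.85 to 32.7 times across the 9 libraries, with a median ratio of 18.2. Ago4 had 0 to 37 counts. The 250 bases before the RefSeq start sites (GRCm38.p6) of this unequal pair, and of Dicer1 and Mael, the genes with the highest levels, are printed 5′ to 3′ on the gene's strand with CpG dinucleotides in capitals. The windows are chr4:126429543-126429792 for Ago3, chr4:126468584-126468833 for Ago1, chr12:104751953-104752202 for Dicer1 and chr1:166238745-166238994 for Mael, all on the minus strand.
Ago3: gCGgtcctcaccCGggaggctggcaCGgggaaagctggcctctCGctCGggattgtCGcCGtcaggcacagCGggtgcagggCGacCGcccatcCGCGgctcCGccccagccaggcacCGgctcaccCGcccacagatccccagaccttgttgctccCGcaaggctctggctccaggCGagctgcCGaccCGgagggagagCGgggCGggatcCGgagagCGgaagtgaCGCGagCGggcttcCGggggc
Ago1: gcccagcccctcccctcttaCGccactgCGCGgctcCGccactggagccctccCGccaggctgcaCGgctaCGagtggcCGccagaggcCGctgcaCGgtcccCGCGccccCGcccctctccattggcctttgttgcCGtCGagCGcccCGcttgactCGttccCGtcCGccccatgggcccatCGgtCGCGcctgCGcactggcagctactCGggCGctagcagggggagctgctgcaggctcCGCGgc
Dicer1: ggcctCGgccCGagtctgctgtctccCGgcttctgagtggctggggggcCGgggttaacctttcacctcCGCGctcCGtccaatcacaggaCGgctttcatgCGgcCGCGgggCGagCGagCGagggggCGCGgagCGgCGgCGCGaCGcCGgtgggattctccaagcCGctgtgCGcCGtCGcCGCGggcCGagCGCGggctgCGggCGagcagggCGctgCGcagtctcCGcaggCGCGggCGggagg
Mael: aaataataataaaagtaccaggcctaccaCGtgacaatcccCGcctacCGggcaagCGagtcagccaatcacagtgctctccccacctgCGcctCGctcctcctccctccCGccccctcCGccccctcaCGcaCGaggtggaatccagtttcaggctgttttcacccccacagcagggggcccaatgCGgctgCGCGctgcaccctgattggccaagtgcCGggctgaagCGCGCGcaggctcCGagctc

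The Ago3 and Ago1 windows had 27 and 28 CpGs and a GC content of 73.6% and 74.4%. The window of their neighbour Ago4 had 46 CpGs and a GC content of 85.6%. The part of window composition in the levels of these genes was not tested. Dicer1 had 39 CpGs, more than 98.4% of the 32851 windows in the table, and Mael 18, more than 78.3%. The Dicer1 window lies before the annotated start of the gene, not before the start of the oocyte form inside it. Which start gave the Dicer1 counts was not tested. The median window held 6. Windows were found for 8 of the 10 genes, not for Ago2 and Piwil2, and those of Pld6, Tdrkh, Mov10l1 and Henmt1 held 14, 19, 19 and 30 CpGs. The RefSeq start used for the Henmt1 window lies 684 bases inside the gene as the deposited tables place it. TATAAA, searched on both strands, was in 0 of 8 windows and in 12.4% of all. AACNGTT, a form of the site bound by Myb proteins, was also in 0 of 8 and in 3.80% of all. Mybl1 (A-MYB), named here for that motif and known as a driver of piRNA genes in the testis, stood at 9.01 ± 1.07 FPKM in these oocytes (SD, n = 9).

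Among the piRNA genes, Piwil2 encodes a PIWI protein (MILI) that carries piRNAs. Piwil2 (ENSMUSG00000033644, chromosome 14, 70372477 to 70429383, minus strand) was a low transcript, with 18, 24 and 45 counts in the GFP High libraries, 53, 69 and 56 in those of GFP Low and 83, 50 and 38 in those of RFP. That is 0.657, 0.976 and 2.02 CPM in GFP High 1, 2 and 3, against 2.02 to 2.73 in GFP Low and 1.41 to 3.13 in RFP. GFP High 1 and 2 were the lowest of the 9 libraries, and GFP High 3 matched the lowest GFP Low library. The related Piwil1 (MIWI) was the main PIWI transcript, at 25.5 ± 2.66 FPKM, and exceeded Piwil2 by 46.8 to 216 times across libraries. Piwil4 (MIWI2) was counted 0 to 31 times, with 0 counts in 3 of the libraries.

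Pld6 (MitoPLD or Zucchini), a mitochondrial outer-membrane protein, is needed to cut piRNA precursors. Pld6 (ENSMUSG00000043648, chromosome 11, 59783897 to 59787645, minus strand) had 10.1, 5.28 and 2.65 CPM in GFP High 1, 2 and 3. The GFP Low values were 3.04, 4.12 and 5.01 CPM and the RFP values 5.51, 5.27 and 6.01. GFP High spanned the whole range, and the GFP Low libraries lay just under those of RFP. Tdrkh, a Tudor protein that holds PIWI proteins at mitochondria for trimming, was among the steadiest. Its GFP High libraries gave 135, 123 and 116 CPM, the GFP Low libraries 145, 138 and 125 and the RFP libraries 140, 137 and 126. Tdrkh lies on chromosome 3 (ENSMUSG00000041912, 94413273 to 94434668, plus strand), where Oaz3 overlaps it on the opposite strand with 0 to 27 counts and Gm42463 on its own strand with 0 to 35, against 2575 to 3703 for Tdrkh.

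Mov10l1, an RNA helicase that brings piRNA precursors into processing, varied most between libraries. Mov10l1 (ENSMUSG00000015365, chromosome 15, 88982909 to 89055152, plus strand) had 2.48, 18.1 and 4.58 CPM in GFP High 1, 2 and 3. The GFP Low values were 9.85, 4.96 and 6.70 CPM and the RFP values 5.21, 6.71 and 7.16. GFP High held both the highest and the lowest library, with 446 counts in GFP High 2 and 68 in GFP High 1. Of the 12 cumulus and granulosa markers, GFP High 2 had counts for 3: Nr5a2 (2486), Star (42) and Ptgs2 (9). Tnfaip6, Ptx3 and Inha were among those at 0. In GFP High 1, where Mov10l1 was lowest and Pld6 highest, Tnfaip6, Ptx3 and Inha had 197, 159 and 88 counts. GFP High 3 had 3, 0 and 0 counts of these markers, with 4.58 CPM of Mov10l1 and 2.65 of Pld6. RFP 2 had 249, 221 and 144 counts, with 6.71 CPM of Mov10l1 and 5.27 of Pld6. GFP Low 1 had 129, 122 and 108 counts, with 9.85 CPM of Mov10l1 and 3.04 of Pld6. The part of cumulus RNA in these levels was not tested.

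Mael (maelstrom), needed for transposon silencing and piRNA production in male germ cells, lies on chromosome 1 (ENSMUSG00000040629, 166201201 to 166238747, minus strand). Its GFP High libraries gave 53.3, 74.1 and 57.1 CPM, those of GFP Low 59.0, 61.4 and 63.7 and those of RFP 79.4, 55.8 and 61.3. GFP Low was tight and the other groups each held a high library. Henmt1, the enzyme that methylates the 3′ end of piRNAs, lies on chromosome 3 (ENSMUSG00000045662, 108939873 to 108960774, plus strand). Its GFP High libraries gave 45.0, 23.0 and 24.1 CPM, those of GFP Low 44.1, 36.5 and 52.8 and those of RFP 43.0, 41.7 and 32.1. GFP High 2 and 3 lay below the other 7 libraries, while GFP High 1 was among the higher.

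**Figure D2:**
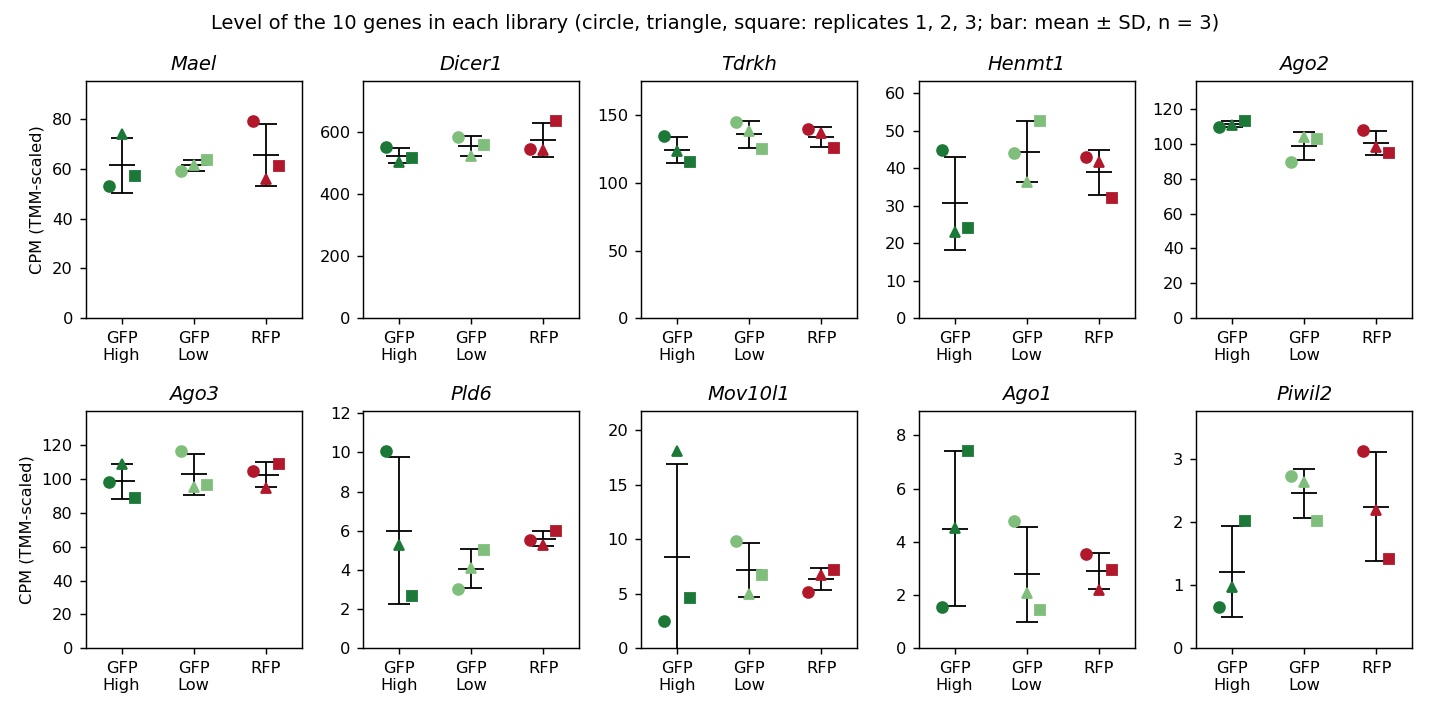
CPM, scaled by TMM over the 9 libraries, of the 10 genes in each library, with the mean and SD of 3 replicates (1 panel per gene, axes from 0, so the lower SD bar of Mov10l1 in GFP High is clipped). The GFP High points of Ago1, Pld6 and Mov10l1 spread across or beyond the range of the other groups, whereas those of Ago2 lie at 110 to 113 CPM.

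For the most like profile to Mael, the gene with the highest FPKM, log2 CPM profiles centred on their own mean were compared over the 9 libraries with 6061 genes of at least 20 CPM. Jakmip1, Laptm4b and Dctn5 were nearest, at root-mean-square differences of 0.073, 0.085 and 0.088 on the log2 scale, where the median gene was at 0.24. Mael itself deviated from its own mean by 0.18 on that scale. The 3 were picked as the nearest of 6061, so their place under the median is no evidence of a shared profile. The lowest library for 8 of the 10 genes was a GFP High library, 3 in GFP High 1, 2 in GFP High 2 and 3 in GFP High 3. Over 14366 genes with a single lowest library, 61.3% had it in GFP High. The highest library was a GFP High one for 4 of the 10 genes, beside 52.6% of 15857 genes, a GFP Low one for 3 and an RFP one for 3. The summed level of the 10 genes was 932 to 1006 CPM in GFP High, 971 to 1060 in GFP Low and 984 to 1077 in RFP. Most of that sum was Dicer1 (504 to 637 CPM).

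The spread between replicates is given by level, beside that of all genes at the same level. Ago1, Piwil2, Pld6 and Mov10l1, all between 1 and 10 CPM on average, had coefficients of variation of 58.6% to 101.1% in GFP High, 15.7% to 64.0% in GFP Low and 6.79% to 38.4% in RFP. The median over the 5097 genes of that band was 54.9%, 27.2% and 24.0%. Of the genes between 10 and 100 CPM, Henmt1 varied by 40.5%, 18.4% and 15.4% in the same order of groups. Mael varied by 3.82% in GFP Low and 18.9% in RFP, and its GFP High value lay just under the all-gene median there. The medians over the 5423 genes of the band were 19.1%, 10.2% and 10.8%. Dicer1, Ago2, Ago3 and Tdrkh, above 100 CPM, had 1.57% to 10.3%, 5.76% to 11.8% and 5.56% to 9.39%, against medians of 9.65%, 5.61% and 7.27% over 2180 genes. The median of these 4 genes, 6.15%, 7.76% and 7.13% in the same order, was not highest in GFP High, as that of the 2180 genes was. Counting error alone would give Mov10l1 a coefficient of 6.98% in GFP High, where 101.1% was measured. For Ago2 it would give 1.91%, where 1.57% was measured. GFP High pools held the fewest oocytes, so pool size and reporter group cannot be told apart in this spread. In pooled cells, fewer oocytes with a transcript and less of it per oocyte cannot be told apart either.

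**Figure D3:**
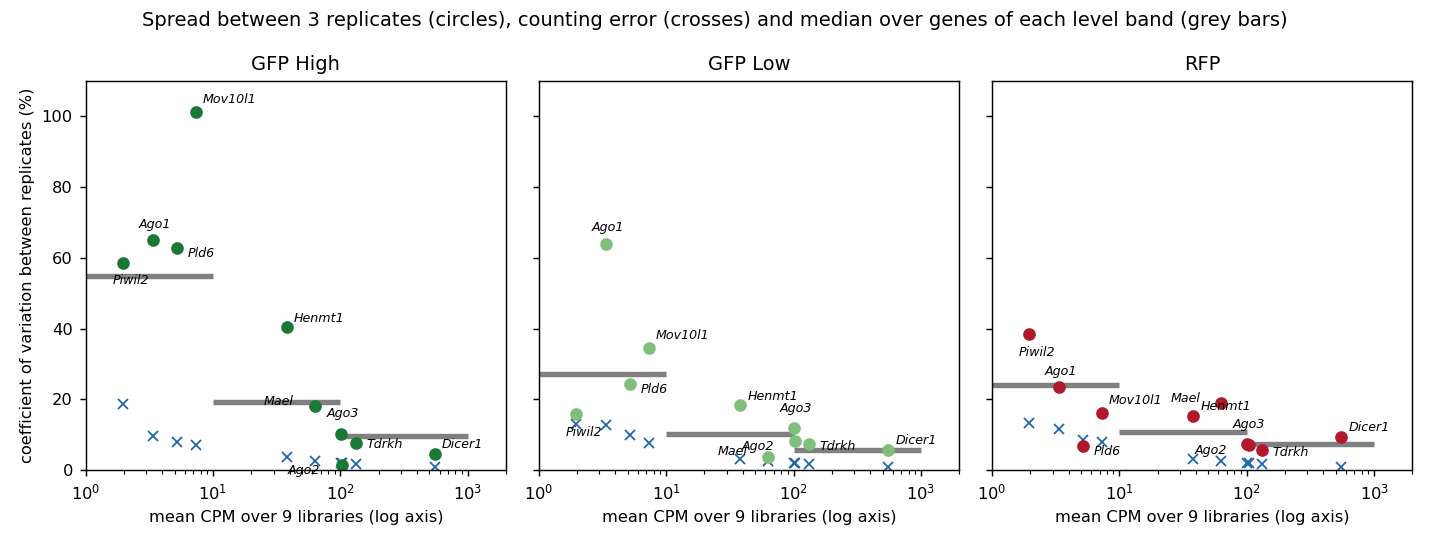
Coefficient of variation between 3 replicates (%) against mean CPM (log axis) for the 10 genes in each group, with the value counting error alone would give as crosses and the median over all genes of 3 level bands as grey bars. The low genes Ago1, Piwil2, Pld6 and Mov10l1 lie at 58.6% or more in GFP High and at 38.4% or less in RFP.

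GFP High was compared with RFP to ask whether the eggs with the brightest GFP carry the small-RNA machinery at another level than RFP eggs. Of the 10 genes, 0 passed an adjusted p of 0.05 in edgeR's quasi-likelihood test over all genes, where 0.0135% of 14829 genes tested passed. None had an unadjusted p under 0.05 in edgeR (0 of 10, against 4.09% of genes). The same held in DESeq2 (0 of 10, against 1311 of 26659 genes). Dicer1 had a log2 fold change of -0.13 (SE 0.09, adjusted p = 0.997 in edgeR), with a 95% interval of 0.796 to 1.05 in fold. Ago2 was at 111.6 against 100.2 CPM, a log2 fold change of 0.16 (SE 0.11, interval 0.940 to 1.32 in fold, edgeR adjusted p = 0.997). It was the 1 gene of 10 whose groups did not overlap, against 11.8% of all genes tested.

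The intervals bounded the well-expressed genes closely and the low ones loosely. Tdrkh was at -0.10 (0.786 to 1.11 in fold), Ago3 at -0.053 (0.797 to 1.17) and Mael at -0.087 (0.712 to 1.25). Henmt1 was at -0.34 (0.525 to 1.19 in fold). For Piwil2, at -0.88, the interval ran from 0.163 to 1.81 in fold. For Ago1, at 0.64, it ran from 0.618 to 3.93, for Mov10l1, at 0.41, from 0.505 to 3.48, and for Pld6, at 0.11, from 0.513 to 2.27. Leaving out GFP High 2 turned Mov10l1 to -0.85, and leaving out GFP High 1 turned Pld6 to -0.50. Without GFP High 3, Ago1 was at 0.072. The median of the 10 log2 fold changes was -0.070, with 4 of 10 above 0, beside -0.0056 over all genes tested, with 49.3% above 0.

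In GFP Low against RFP, which asks the same of weakly GFP-positive eggs, again 0 of 10 genes passed (0.0197% of 15199 genes did). None had an unadjusted p under 0.05 in edgeR (0 of 10, against 2.62% of genes). The same held in DESeq2 (0 of 10, against 589 of 29093 genes). Dicer1 was at -0.048 (SE 0.08, 0.853 to 1.10 in fold), Ago2 at -0.021 (0.849 to 1.14) and Ago3 at 0.0012 (0.853 to 1.17). Tdrkh was at 0.023 (0.888 to 1.16 in fold), Mael at -0.092 (0.770 to 1.14) and Henmt1 at 0.19 (0.902 to 1.45). Pld6 had 4.07 against 5.60 CPM, a log2 fold change of -0.46 (SE 0.27, 0.486 to 1.09 in fold, edgeR adjusted p = 1.00). It was the 1 gene of 10 without overlap, against 7.68% of all genes. Mov10l1, Ago1 and Piwil2 were at 0.17, -0.070 and 0.13, and Ago1 was at -0.71 without GFP Low 1. The median over the 10 genes was -0.0099, beside -0.0041 over all genes.

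The contrast of GFP High and GFP Low bears on these transcripts in bright against dim GFP eggs. Here 0 of 10 genes passed, and 0% of 14785 genes tested passed in edgeR, while DESeq2 called 4 genes, 0 of them among the 10. An unadjusted edgeR p under 0.05 was found for 558 genes. None of the 10 genes was among them (0 of 10, against 3.77% of genes). In DESeq2 an unadjusted p under 0.05 was likewise found for 0 of 10, against 1246 of 26453 genes. Henmt1 had the smallest unadjusted p of the 30 tests. It was at 30.7 against 44.3 CPM, a log2 fold change of -0.53 (SE 0.27, 0.459 to 1.04 in fold, edgeR adjusted p = 0.998), and GFP High 1 lay inside the GFP Low range. Ago2 was at 0.18 (SE 0.11, 0.958 to 1.33 in fold, edgeR adjusted p = 0.998) and was again the 1 gene of 10 without overlap, against 11.5% of all genes. This comparison and that with RFP use the same GFP High libraries. Dicer1 was at -0.082 (0.841 to 1.06 in fold), Tdrkh at -0.13 (0.778 to 1.08), Ago3 at -0.057 (0.790 to 1.17) and Mael at 0.0040 (0.795 to 1.26). Piwil2, Ago1, Pld6 and Mov10l1 were at -1.01, 0.70, 0.57 and 0.23, with intervals that each spanned no change. Ago1 was at 0.13 without GFP High 3 and at 1.34 without GFP Low 1, Pld6 at -0.038 without GFP High 1 and Mov10l1 at -1.02 without GFP High 2. The median over the 10 genes was -0.026, beside -0.0048 over all genes.

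**Figure D4:**
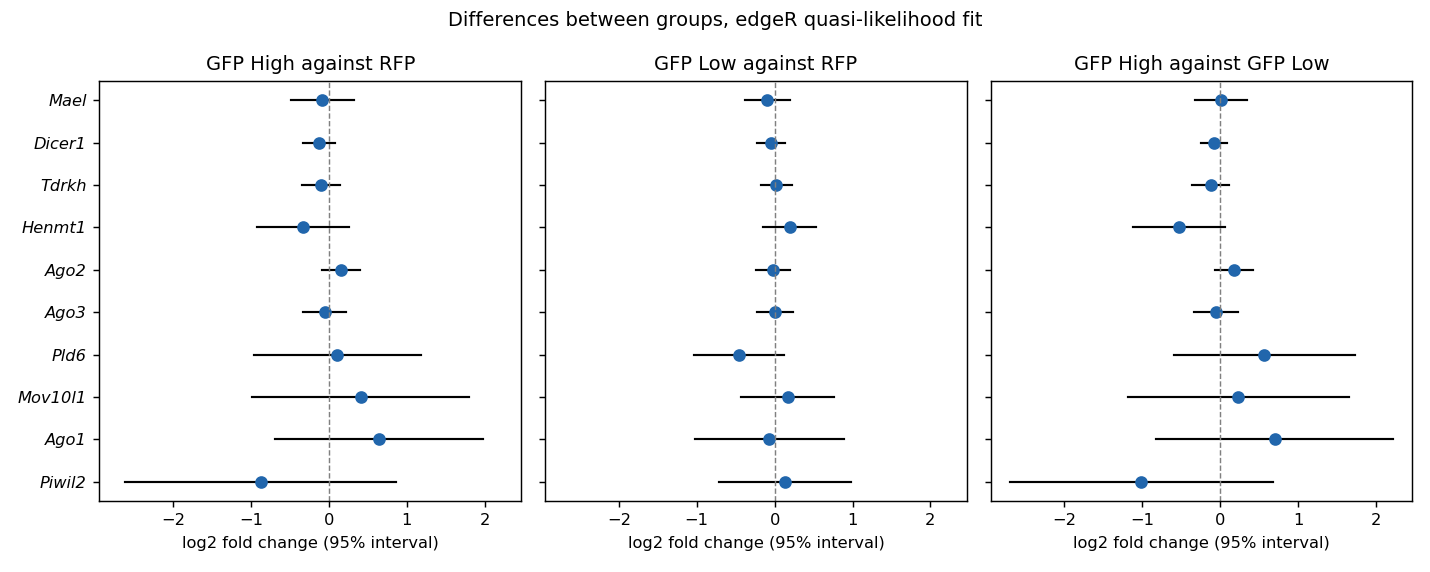
Log2 fold change of the 10 genes in each comparison (x axis, first group against second) with the 95% interval from edgeR's quasi-likelihood fit. All 30 intervals include 0, and they are narrow for Dicer1, Tdrkh, Ago2 and Ago3 and wide for Piwil2, Ago1, Mov10l1 and Pld6.

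In a single test of any difference among the 3 groups, 0 of 10 genes passed (edgeR, 0.0126% of 15857 genes did) and 0 of 10 had an unadjusted p under 0.05, against 4.65% of genes. The authors' deposited tables likewise hold 0 of the 10 genes under an adjusted p of 0.05, with the lowest value, 0.820, in GFP High against RFP.

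The 10 genes belong to wider lists of small-RNA genes, and the 3 highest of each list outside the 10 are described. Gtsf1, a small zinc-finger partner of PIWI proteins, was highest in the piRNA list at 374.6 ± 36.4 FPKM (SD, n = 9), followed by the Tudor genes Tdrd1 at 79.6 ± 3.90 and Tdrd5 at 50.5 ± 4.57. Of the siRNA and microRNA list, Tsnax, a subunit of the C3PO nuclease, was highest at 53.3 ± 2.29 FPKM, with Drosha at 35.0 ± 4.63 and, after Dicer1, Tnrc6c, a silencing partner of Argonautes, at 13.6 ± 1.12. Among 5 genes known to be matched by pseudogene-derived endo-siRNAs in oocytes, Kif2c stood at 53.0 ± 4.81 FPKM, Pdzd11 at 11.8 ± 1.65 and Rangap1 at 3.13 ± 0.412. Wdr77, a methyltransferase partner of the piRNA list picked out after its values were seen, was counted at most 4 times, and Atp5f1 overlaps it on the opposite strand with 654 to 1166 counts.

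No gene of these lists passed the edgeR test in any comparison. Of the 15 genes of the siRNA and microRNA list, 15, 15 and 14 were tested in GFP High against RFP, GFP Low against RFP and GFP High against GFP Low, and 0 were called in either direction. Of the 28 piRNA genes 26, 26 and 27 were tested, and of the 5 matched genes 5 each time, with 0 called. Median log2 fold changes were -0.053, -0.048 and -0.035 for the first list, -0.071, -0.030 and -0.0074 for the second and 0.089, 0.013 and 0.044 for the third. In GFP High against RFP, 49.3% of all genes had a log2 fold change above 0. Of the lists, 5 of the 15 tested siRNA and microRNA genes, 8 of the 26 tested piRNA genes and 3 of the 5 matched genes did. In GFP Low against RFP it was 6 of 15, 9 of 26 and 3 of 5, beside 48.9%. For GFP High against GFP Low it was 6 of 14, 13 of 27 and 4 of 5, beside 49.4%. The siRNA and microRNA list and the piRNA list together hold the 10 genes, so these counts repeat theirs in part.

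An unadjusted p under 0.05 in edgeR was found in GFP High against RFP for 1 of 15 siRNA and microRNA genes, 1 of 26 piRNA genes and 1 of 5 matched genes, where 4.09% of all genes had one. In GFP Low against RFP it was 1 of 15, 1 of 26 and 0 of 5, beside 2.62%, and in GFP High against GFP Low 0 of 14, 0 of 27 and 0 of 5, beside 3.77%. The genes behind these counts are Prkra in both comparisons with RFP, Fkbp6 and Hdac1 in the first and Tdrd6 in the second, and they are named after their values were seen. None passed adjustment in edgeR (adjusted p = 0.997 in the first comparison and 1.00 in the second). Prkra, which encodes the Dicer partner PACT, had 0 counts in each GFP High library, 4, 16 and 3 in those of GFP Low and 39, 27 and 18 in those of RFP. It passed the filter on low counts only through RFP, where it is high, so its p supports nothing. Fkbp6, a co-chaperone of piRNA production, had 2.83 against 6.13 CPM and Hdac1, from the matched genes, 12.8 against 8.27 CPM in GFP High and RFP. Tdrd6 had 2.97 CPM in GFP Low against 4.89 in RFP.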

How the data were processed

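Poly-A RNA from pooled eggs was read from both fragment ends, per the labels' protocols. The submitters' processing notes name fastp, HISAT2 2.0.5, featureCounts 1.5.0-p3, DESeq2 1.20.0 and the build mm10. Raw read counts per gene stand in 3 tables that the authors deposited, each on 1 pair of groups and 6 libraries. The deposited FPKM divide by the gene length in the same table. The deposited normalised signal, a count over a size factor, was not tested. Of the authors' own comparison, with its log2 ratio and p-value, only adjusted values are quoted, where their table is named. Whether counting used strand is not given in the sources used here.

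The tables were joined into 30153 genes by 9 libraries, with 0 set for 178 genes that a table lacked. All 10 genes had the coordinates of GENCODE M21 (GRCm38). Counts of each pair were tested with edgeR 4.0.16 under R 4.3.3: filterByExpr, TMM, quasi-likelihood test at defaults, Benjamini-Hochberg over all genes, threshold 0.05. Standard errors and 95% intervals came from the F statistic and its degrees of freedom. The script was tested on simulated data. DESeq2 1.42.0 and the other alternatives are in the closing section. CPM were scaled by TMM over 9 libraries. Counting error is the Poisson value of the mean count. Intervals and depth cover no amplification error, since reads carry no molecular identifiers. Promoter windows are RefSeq's, cut to the 250 bases before the start. Named genes were the 10, any list gene that passed the test, the 3 highest by FPKM in each list outside the 10, the 3 most like Mael, and Piwil1, Piwil4, Ago4 and Drosha. Mybl1, Wdr77, Prkra, Fkbp6, Hdac1 and Tdrd6 fall outside this rule and were added after their values were seen. The genes and lists were chosen with earlier results of these data known. Hba-a1 and Hbb-bs of the red blood cell markers were not matched.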

Additional observations from a re-analysis of the deposited data

How the results depend on the processing

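Under 7 alternatives (DESeq2, edgeR with size factors from DESeq2, edgeR without TMM factors, no filter, another quasi-likelihood option, a replicate block, all 9 libraries in 1 fit) and 6 left-out libraries in each comparison, 0 of the 10 genes and 0 of the list genes were called, and the lowest adjusted p of the 10 was 0.464. Counts over all genes did move. In GFP High against RFP, 2 genes were called, with 12 by DESeq2, 16 without the filter, 4 with the replicate block and 0 to 2 with a library left out. In GFP Low against RFP 3 were called, with 10 by DESeq2 and 34 without the filter. In GFP High against GFP Low 0 were called, with 4 by DESeq2, 16 without the filter and 0 to 1 with a library left out (1 without GFP High 3). The cause of these moves was not tested.

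Some log2 fold changes changed sign. With the replicate block, Mov10l1 and Pld6 turned to -0.10 and -0.084 in GFP High against RFP, Mov10l1 to -0.25 and Mael to -0.0094 in GFP High against GFP Low, and Ago3 to -0.0020 in GFP Low against RFP. Ago3 in GFP Low against RFP was also -0.0072 without TMM factors, -0.0060 without the filter, -0.0046 with the other option and -0.00028 with all libraries in 1 fit. Mael in GFP High against GFP Low was -0.0011, -0.0052 and -0.0016 in the first 3 of these. Deviations of same-numbered libraries correlated at -0.107 to 0.137. Differently numbered libraries were not compared, so these values do not show whether a deviation is shared by number. These values cannot tell whether same-numbered pools came from the same animals, which the labels do not say.

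With 1 library left out in turn, the GFP High against RFP values ran from -0.85 to 0.84 for Mov10l1, -0.50 to 0.46 for Pld6, -0.25 to 0.069 for Mael and -0.14 to 0.012 for Ago3. GFP Low against RFP ran from -0.71 to 0.24 for Ago1, -0.12 to 0.45 for Piwil2, -0.12 to 0.38 for Mov10l1, -0.19 to 0.068 for Mael, -0.10 to 0.051 for Ago3, -0.090 to 0.030 for Dicer1, -0.064 to 0.043 for Ago2 and -0.026 to 0.077 for Tdrkh. GFP High against GFP Low ran from -1.02 to 0.66 for Mov10l1, -0.038 to 0.91 for Pld6, -0.16 to 0.091 for Mael and -0.14 to 0.040 for Ago3. The low ends of Mov10l1 and Pld6 in both GFP High comparisons came without GFP High 2 and GFP High 1. Ago1 kept its sign in both GFP High comparisons but ran from 0.072 to 1.04 and from 0.13 to 1.34. Depth was lowest for Piwil2, with 18 to 83 counts a library, and Ago1, with 40 to 165, where counting error alone would give 18.6% and 9.70% of variation in GFP High and 58.6% and 65.0% were measured. The order by transcript length was added after seeing the data.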
